A study of Mus musculus with 27 samples.

Results

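When fibroblasts are pushed towards pluripotency, trimethylation of histone H3 at lysine 4 (H3K4me3) appears at many sites that the cells did not mark before. Some of these sites are marked in embryonic stem (ES) cells as well and others are not. The sites described here are the second kind: 3152 H3K4me3 peaks of wild-type (WT) mouse embryonic fibroblasts (MEF) given doxycycline (dox) that overlapped, by 1 bp or more, no H3K4me3 peak of untreated WT MEF, untreated Utx knockout (Utx-KO) MEF, WT ES cells or Utx-KO ES cells. They are called ES-absent gains below. They made up 16.0% of the 19689 H3K4me3 peaks of WT MEF with dox and 9.33% of the length those peaks covered. Their absence from those 4 lists is how they were chosen and is not a finding.

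H3K4me3 is laid down by the MLL and SET1 methyltransferase complexes and is found at the promoters of genes that are active or poised for activation. H3K27me3 is written by Polycomb repressive complex 2 and marks silenced developmental genes, and promoters carrying both marks are called bivalent. UTX (Kdm6a) removes methyl groups from H3K27 and is itself a subunit of MLL3 and MLL4 complexes. Doxycycline in these fibroblasts switches on Oct4, Sox2, Klf4 and c-Myc (OSKM), factors known to open chromatin at many sites early in reprogramming, including sites that pluripotent cells do not keep.

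The chromatin immunoprecipitation and sequencing (ChIP-seq) series had 27 samples, and 19 peak lists were used: 8 for H3K4me3, 8 for H3K27me3 and 3 for UTX. Fibroblasts carried the V19-OSKM background and were WT (Utx+/Y) or knockout (Utx-/Y), without or with dox, all in 2i/LIF medium, and ES cells were V6.5 of the same 2 Utx genotypes in N2B27 2i/LIF. Aberrant induced pluripotent stem (iPS) cells of the same background and Utx-/Y genotype were profiled without dox as 2 clones. Each state and mark had 1 library, and the iPS state had 1 library from each of 2 clones, so no difference between libraries could be tested. The length of dox exposure was not given in the sources used here, and UTX was mapped in WT cells only. Gene positions in the mm9 build were not used here, so regions are named by position, no peak was assigned to a gene, and neither the cell types nor the Utx genotype was checked against marker genes.

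Some lists were short. The H3K27me3 list of WT MEF with dox held 938 peaks and those of the iPS clones 135 and 737, against 4335 to 36231 in the other 5 H3K27me3 lists. The longest by far was that of Utx-KO ES cells, with 36231 peaks over 79.8 Mb. That of WT ES cells held 5679 peaks over 6.20 Mb. Read depth was unknown, and a peak missing from a list may lie under its calling threshold. Intervals in brackets are 95% intervals for counting error over peaks only (Wilson for shares, and both Wilson intervals combined for a difference of shares). Neighbouring peaks are not independent and peaks are not replicates, so the intervals say nothing about variation between cultures.

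ES-absent gains were mostly weak and narrow peaks, with a small group of strong and wide ones. The score of a peak, which follows its statistical strength within its own list, had a median of 90.6 and ranged from 50 to 3100. ES-marked gains, the 2588 dox peaks that were absent from both untreated fibroblast lists but met an ES list, had a median score of 209, and the 13949 peaks kept from untreated fibroblasts had a median of 1525. Median widths were 1342, 1718 and 2743 bp in the same order. ES-absent gains were 63.5% of all dox peaks scoring 50 to 100 and 0.533% of those scoring 1000 or more. Only 50 of them reached a score of 1000 and 7 reached 3100, near the ceiling of the scale.

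At the edge of the rule, the ES-absent gains nearest to an excluded peak lay 3, 13 and 16 bp away from it. The dox peaks that missed the rule by least overlapped an excluded peak by 1, 34 and 40 bp. Most ES-absent gains were not edges of neighbouring peaks: the median gap to the nearest peak of the 4 lists was 14082 bp, 15.5% lay within 2.5 kb and 21.4% lay beyond 50 kb. From the nearest untreated fibroblast peak the median gap was 25666 bp for ES-absent gains and 29532 bp for ES-marked gains.

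Most ES-absent gains were found in no other H3K4me3 list. Of the 3152, 1794 (56.9%, 55.2 to 58.6, against 10.4% of all dox peaks) met no H3K4me3 peak of Utx-KO MEF with dox or of either iPS clone, 693 met 1 of these 3 lists, 487 met 2 and 178 (5.65%, 4.89 to 6.51, against 71.0%) met all 3. The sites seen in all 3 had a median score of 189, and those seen in none 79.9. The plot of combinations shows that the most frequent shared patterns were iPS clone 2 alone (423 sites), both clones without Utx-KO MEF with dox (314) and Utx-KO MEF with dox alone (243). Only 27 sites were met by clone 1 alone.

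**Figure D1:**
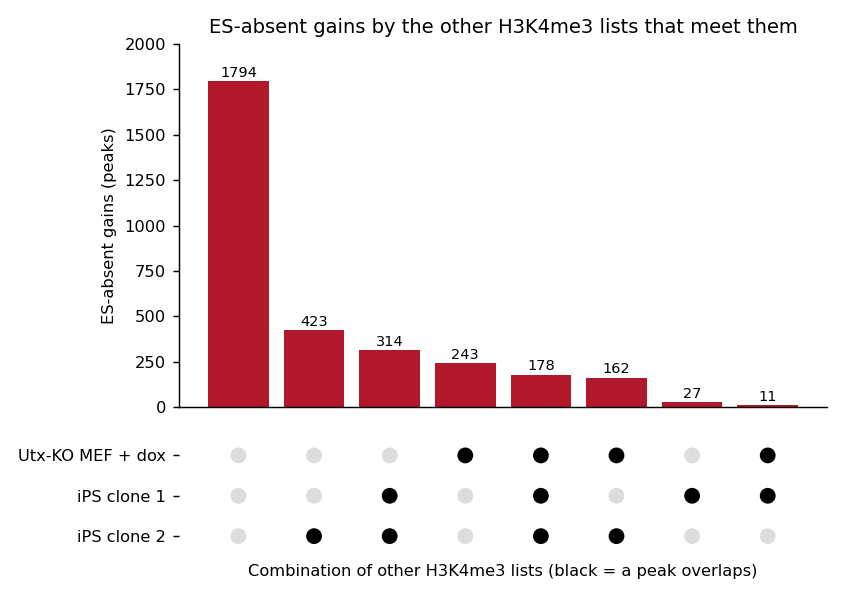
Number of ES-absent gains (bars, vertical axis) for each combination of the 3 H3K4me3 lists that the rule did not use, where a black dot means that a peak of the list overlapped. The bar of 1794 sites met by none of the 3 lists is the tallest, and both clones without Utx-KO MEF with dox gave 314.

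Utx-KO fibroblasts with dox carried H3K4me3 at few of these sites. A peak of Utx-KO MEF with dox met 594 ES-absent gains (18.8%, 17.5 to 20.2), while 78.6% of all H3K4me3 peaks of WT MEF with dox were met. The share was 52.0% among ES-marked gains, a difference of -33.2 percentage points (-35.5 to -30.8), and 97.0% among kept peaks. Part of the gap to kept peaks and to all dox peaks is set by the rule. Sites met by a peak of untreated Utx-KO MEF were removed from ES-absent gains and count as kept peaks. ES-marked gains also met no untreated fibroblast peak. By length, 17.2% of the bases of ES-absent gains and 48.1% of those of ES-marked gains lay under a peak of Utx-KO MEF with dox. The Utx-KO peaks that met ES-absent gains were weak in their own list, with a median score of 98.5, below which 9.54% of that list lay, against a list median of 1414.

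The share was higher in a different and smaller set of dox peaks, chosen from shortened lists. When each H3K4me3 list was limited to its 16157 strongest peaks, which left the Utx-KO list with dox as it was, 1693 dox peaks with a median score of 207 fulfilled the rule. The excluded lists were shortened too, so some of the 1693 met a weaker excluded peak and are not ES-absent gains. Of the 1693, 41.5% were met in Utx-KO MEF with dox, 14.5% in clone 1 and 21.9% in clone 2. The difference from ES-marked gains chosen from the same lists was -31.8 points in Utx-KO MEF with dox. The Utx-KO list itself held 960 peaks outside the 4 lists (5.94% of its 16157), of which 534 (55.6%, 52.5 to 58.7) met a WT MEF peak with dox. With equal numbers it held 1674 peaks outside the 4 shortened lists, close to the 1693 of WT MEF with dox. Of these, 40.4% met a WT peak with dox.

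The difference between ES-absent and ES-marked gains was present at every level of peak score. For scores of 50 to 100, 11.4% (9.96 to 12.9) of ES-absent gains and 25.4% (21.9 to 29.1) of ES-marked gains met a Utx-KO peak with dox. Between 200 and 500 these shares were 35.7% and 61.4%. At 1000 or more they were 26.0% (15.9 to 39.6) of 50 sites and 83.1% (77.3 to 87.6) of 201 sites. Strong ES-marked gains were thus mostly found in Utx-KO cells as well, and most of the strongest ES-absent gains were not.

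**Figure D2:**
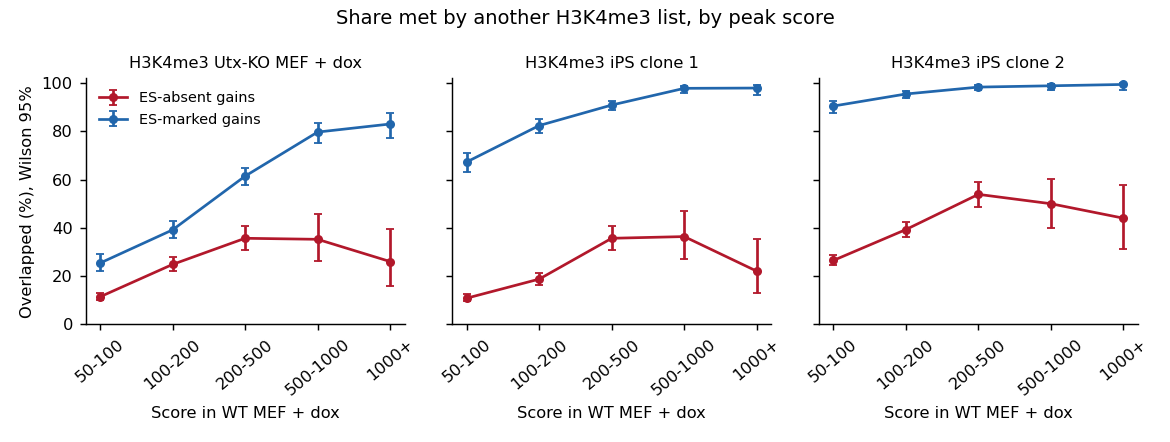
Share of ES-absent gains and ES-marked gains (vertical axis, percent with Wilson 95% intervals) met by an H3K4me3 peak of Utx-KO MEF with dox or of each iPS clone, by score in WT MEF with dox (horizontal axis, 5 bands). At scores of 1000 or more, 26.0% of ES-absent and 83.1% of ES-marked gains were met in Utx-KO MEF with dox.

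The aberrant iPS clones differed in how many of these sites carried H3K4me3, clone 1 with fewer and clone 2 with more than the 594 of Utx-KO MEF with dox. Clone 1 met 530 ES-absent gains (16.8%, 15.5 to 18.2) and clone 2 met 1077 (34.2%, 32.5 to 35.8), a mean of 25.5% ± 12.3 (SD, n = 2). Over all dox peaks the clones met 78.6% and 85.7%. Both clones met 492 sites (15.6%, against 78.2% of all dox peaks), and at least 1 clone met 1115 (35.4%, against 86.0%). Of the latter, 764 (24.2% of all ES-absent gains, against 11.1%) were not met in Utx-KO MEF with dox. Clone 2 had the longest H3K4me3 list, with 28232 peaks against 23388 in clone 1. In the different set of 1693 dox peaks chosen above with equal peak numbers, both clones met a smaller share than Utx-KO MEF with dox. Some peaks of that set are not ES-absent gains. The lists of the clones were cut for it, and that of Utx-KO MEF with dox was not.

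ES-marked gains were met at 85.1% and 96.1%, so the difference was -65.1 ± 4.51 percentage points (SD, n = 2 clones). The ES lists define both sets, so part of this difference is set by the rule: sites that an ES list held were removed from the first set and required in the second. Peaks outside the 4 lists were 11.5% of the H3K4me3 peaks of clone 1 and 25.4% of those of clone 2. Seen from the clones, 26.8% of these 2692 peaks of clone 1 and 17.0% of these 7170 peaks of clone 2 met a peak of WT MEF with dox. Of the same 2692 peaks of clone 1, 75.7% met a peak of clone 2.

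Sites shared with Utx-KO MEF with dox were met more often in the clones as well. Clone 1 met 31.8% (28.2 to 35.7) of the 594 ES-absent gains found in Utx-KO MEF with dox and 13.3% (12.1 to 14.7) of the other 2558. Clone 2 met 57.2% (53.2 to 61.2) and 28.8% (27.1 to 30.6). The sites with and without the Utx-KO peak had median scores of 133 and 85.1. Among sites scoring 200 or more the difference was 26.8 points (18.0 to 35.3) for clone 1 and 28.1 points (19.2 to 36.2) for clone 2.

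H3K27me3 was present at few ES-absent gains in fibroblasts and in WT ES cells, and at more of them in Utx-KO ES cells. The Utx-KO ES list was also by far the longest for this mark. Before dox, 244 of the sites (7.74%, 6.86 to 8.73) met an H3K27me3 peak in WT MEF, where 7.00% of all dox peaks did, and 212 (6.73%) did in Utx-KO MEF, where the share over all dox peaks was 6.42%. With dox, 45 sites (1.43%, against 1.20% of all dox peaks) met one in WT MEF and 305 (9.68%, 8.69 to 10.8, against 10.7%) did so in knockout MEF. In ES cells, 258 (8.19%, against 9.48%) were met in WT and 1014 (32.2%, 30.6 to 33.8, against 31.3%) in Utx-KO cells. All 6 shares of sites were near those over all dox peaks, although ES-absent gains were narrower. By length, H3K27me3 covered more of ES-absent gains than of all dox peaks in each of these 6 lists. In untreated WT MEF it covered 4.93% of their bases against 2.51%. In Utx-KO MEF with dox the values were 8.22% and 6.40%, and in Utx-KO ES cells 26.1% and 20.5%. In the iPS clones 2 and 4 sites met an H3K27me3 peak (0.0635% and 0.127%, against 0.0609% and 0.132%).

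Among new dox peaks, however, ES-absent gains carried H3K27me3 less often than ES-marked gains. The shares were 7.74% and 24.7% in untreated WT MEF, a difference of -17.0 points (-18.9 to -15.1). In Utx-KO MEF with dox they were 9.68% and 37.8%, a difference of -28.1 points (-30.2 to -25.9), and in Utx-KO ES cells 32.2% and 58.9%, a difference of -26.7 points (-29.2 to -24.2). In all, 1065 ES-absent gains (33.8%) met H3K27me3 in at least 1 of the 8 lists, near the 33.6% of all dox peaks, while 64.6% of ES-marked gains did. The plot of shares by list gives all 14 lists for the 3 sets. The order held for sites scoring 200 to 500, where H3K27me3 in Utx-KO MEF with dox met 20.4% (16.6 to 24.8) of ES-absent and 43.4% (39.9 to 46.9) of ES-marked gains.

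**Figure D3:**
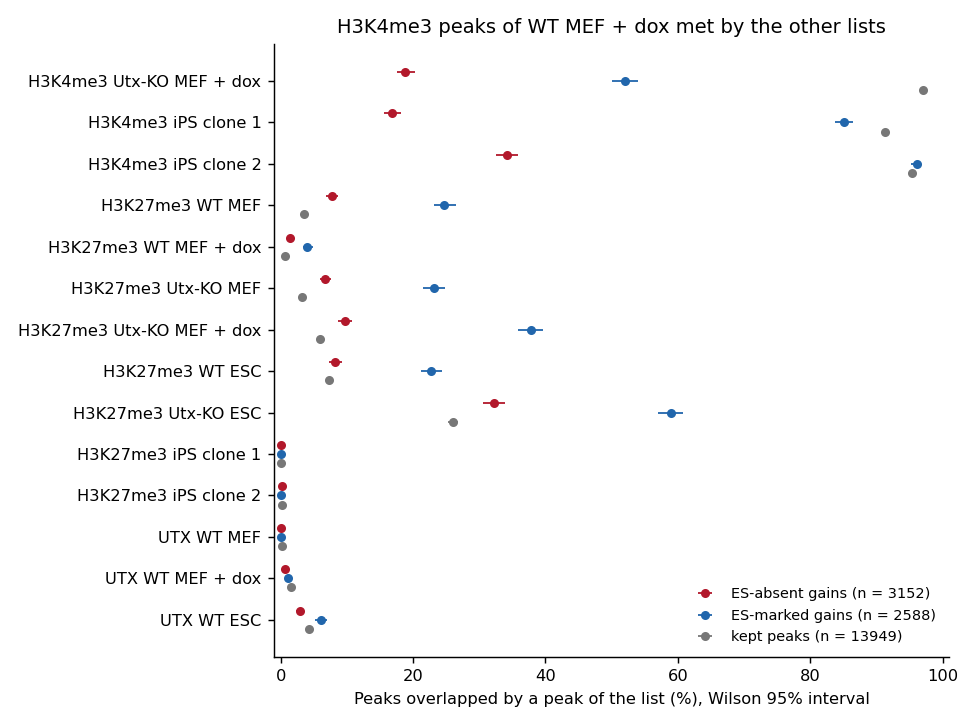
Share of H3K4me3 peaks of WT MEF with dox overlapped by a peak of each of 14 other lists (horizontal axis, percent with Wilson 95% intervals), for ES-absent gains, ES-marked gains and kept peaks. ES-absent gains have the lowest share in the 3 H3K4me3 lists, and for H3K27me3 in fibroblasts and ES cells they lie below ES-marked gains and close to or somewhat above kept peaks.

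The overlap of H3K27me3 between states at these sites varied widely. Among the 244 sites marked in untreated WT MEF, 161 (66.0%) were marked in the untreated knockout as well and 189 (77.5%) in the knockout given dox. Only 31 (12.7%) met one of the few H3K27me3 peaks called in WT cells given dox. In ES cells an H3K27me3 peak met 130 (53.3%) in WT and 226 (92.6%) in Utx-KO cells. Of the 244 sites, 213 met no H3K27me3 peak of WT MEF with dox, against 1254 of all 1378 dox peaks marked in untreated WT MEF. The other overlaps were counted for ES-absent gains only, so whether they are particular to these sites is not known. The Utx-KO ES list was far longer (36231 against 5679 peaks), which also bears on the sites counted below as marked in Utx-KO but not WT ES cells. H3K27me3 in a fibroblast list without the mark in an ES list was found at 41 sites (1.30%, against 1.96% of all dox peaks). The mark in an ES list without any in fibroblasts was found at 678 (21.5%, against 20.1%), and 765 sites (24.3%, against 22.1%) had it in Utx-KO but not in WT ES cells. The 1081 Utx-KO ES peaks that met any ES-absent gain had a median width of 2811 bp against 1594 bp for their whole list and a median score of 227 against 100.4, and wider peaks meet more sites by construction.

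ES-absent gains that carried H3K27me3 were the ones most often marked by H3K4me3 in the iPS clones. Of the 244 sites with H3K27me3 in untreated WT MEF, clone 1 met 136 (55.7%, 49.5 to 61.8) and clone 2 met 191 (78.3%, 72.7 to 83.0). Of the 2908 sites without it, the clones met 13.5% (12.3 to 14.8) and 30.5% (28.8 to 32.2). The plot of H3K4me3 by H3K27me3 shows the same order for H3K27me3 mapped in 4 other states. The order was not particular to ES-absent gains, although the differences were smaller among ES-marked gains. Of the latter with H3K27me3 in untreated WT MEF, clone 1 met 95.3% and clone 2 met 99.1%. Without it the clones met 81.8% and 95.1%, which limits how large a difference could be among ES-marked gains.

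The split of ES-absent gains was also present among peaks of like score. Sites with H3K27me3 in untreated WT MEF had a median score of 139 and those without 88.4. Among sites scoring 50 to 100 clone 1 met 42.3% (32.0 to 53.4) of 78 sites with the mark and 9.34% (8.04 to 10.8) of 1692 without. Clone 2 met 66.7% and 24.6% of the same sites. Among sites scoring 200 or more clone 2 met 91.6% (83.6 to 95.9) of 83 sites with the mark and 44.6% (40.0 to 49.4) of 428 without.

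For H3K4me3 in Utx-KO MEF with dox the split was smaller than in the clones, at 5.59 to 15.8 points over the 5 states plotted, against 26.4 to 48.9 points in the clones. H3K4me3 was found there at 26.2% (21.6 to 31.4) of the 305 ES-absent gains with H3K27me3 in the same cells and at 18.1% (16.7 to 19.5) of the 2847 without. For sites scoring 100 to 200 the order was opposite, 21.9% (14.8 to 31.1) and 25.2% (22.2 to 28.3), a difference of -3.29 points (-11.1 to 6.43). It was 4.67 points (-1.23 to 12.8) at scores of 50 to 100 and 8.66 points (-1.61 to 19.3) at 200 or more. Each interval by score thus spanned both signs. By H3K27me3 in WT ES cells the shares were 33.3% (27.9 to 39.3) and 17.6% (16.2 to 19.0), and by that in Utx-KO ES cells 26.7% (24.1 to 29.5) and 15.1% (13.7 to 16.7). In the knockout fibroblasts with dox, 80 sites (2.54%, against 7.50% of all dox peaks) had both marks and 225 (7.14%, against 3.21%) had H3K27me3 alone. The rule bears on the shares over all dox peaks, since sites with H3K4me3 in untreated Utx-KO MEF count as kept peaks. Both shares were higher for ES-marked gains, at 23.8% with both marks and 14.0% with H3K27me3 alone in Utx-KO MEF with dox. Among ES-marked gains, H3K4me3 was found there at 62.9% of the 977 sites with H3K27me3 in the same cells and at 45.4% of the 1611 without. Sites that carried H3K4me3 in neither Utx-KO MEF with dox nor a clone had H3K27me3 in Utx-KO MEF with dox at 2.90%, while the 314 sites marked in both clones but not in Utx-KO MEF with dox had it at 34.4%.

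**Figure D4:**
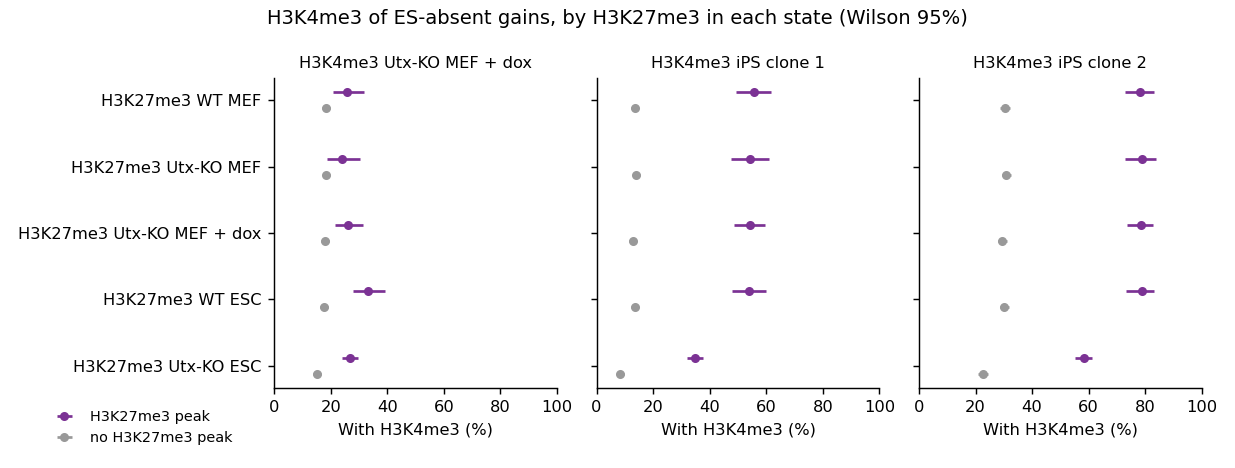
Share of ES-absent gains with an H3K4me3 peak in Utx-KO MEF with dox, iPS clone 1 and iPS clone 2 (horizontal axes, percent with Wilson 95% intervals), for sites with and without an H3K27me3 peak in each of 5 states (rows). For H3K27me3 in untreated WT MEF, clone 2 met 78.3% of sites with the mark and 30.5% of sites without.

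How H3K27me3 varied with distance from an excluded peak differed between lists. H3K27me3 of untreated WT MEF met 15.1% (12.2 to 18.5) of the 490 ES-absent gains within 2.5 kb of a peak of the 4 lists, 11.2% (9.19 to 13.5) of the 824 at 2.5 to 10 kb, 3.61% (2.68 to 4.84) of the 1165 at 10 to 50 kb and 5.35% (3.89 to 7.32) of the 673 beyond 50 kb. H3K27me3 of Utx-KO ES cells met 34.1%, 32.6%, 31.5% and 31.4% of the same groups. For H3K4me3, clone 2 met 42.2%, 37.6%, 32.9% and 26.3%. For Utx-KO MEF with dox the share did not follow distance, at 26.1%, 14.4%, 17.6% and 21.1%.

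UTX peaks were rare at ES-absent gains. In WT MEF with dox a UTX peak met 20 of the sites (0.635%, 0.411 to 0.978), where 1.34% of all dox peaks were met. UTX in ES cells met 91 (2.89%, 2.36 to 3.53, against 4.26%) and in untreated WT MEF 2 (0.0635%, against 0.132%). The share with dox was 1.04% among ES-marked gains, and the interval of the difference (-0.930 to 0.0644 points) included 0. It was 1.56% among kept peaks, a difference of -0.921 points (-1.23 to -0.527). ES-absent gains were narrower than most dox peaks. By length, UTX with dox covered 0.205% of their bases against 0.277% over all dox peaks. For UTX in untreated WT MEF these values were 0.00980% and 0.0205%. For UTX in ES cells they were 1.09% and 1.01%, so the order there was not that of the shares. The 20 sites with UTX included 5 with H3K27me3 in any list and 3 with H3K4me3 in Utx-KO MEF with dox. UTX peaks with dox were weak throughout, with 0.452% of them scoring 100 or more. The strongest that met an ES-absent gain scored 82.05. A limit of 100 in every list therefore removed each of these overlaps by construction. No UTX peak with dox met the dox peaks that then fulfilled the rule (0 of 2061), which says nothing about UTX at ES-absent gains.

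The leading sites by score show each pattern. The widest, chr15:101191195-101201304, spanned 10110 bp at a score of 3100 and had no H3K4me3 peak in any other list, with an H3K27me3 peak of score 267 in Utx-KO ES cells. The next in this group were chr17:32587402-32596853 (9452 bp, score 3100) and chr7:105304890-105314122 (9233 bp, score 3100). The first of these met H3K27me3 of Utx-KO ES cells (score 156) and UTX of WT ES cells (62.6). The second met no peak in the other 18 lists, and neither did chr11:12306696-12312659 (score 2710) or chr16:32672118-32676263 (2253). These are strong H3K4me3 regions of WT MEF with dox with no called peak in any other H3K4me3 list. Absence from 4 of those lists is set by the rule. Of the 50 ES-absent gains scoring 1000 or more, 24 met none of the 3 H3K4me3 lists that the rule did not use. Utx-KO MEF with dox, clone 1 and clone 2 met 13, 11 and 22 of the 50. The same lists met 167, 197 and 200 of the 201 ES-marked gains at that score. The number of ES-marked gains met by none of the 3 was not counted at that score.

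Sites shared with Utx-KO MEF with dox and neither clone were led by chr11:61021852-61029591 (7740 bp, score 3100). The strongest Utx-KO peak there scored 254 and spanned 3013 bp, and H3K27me3 was present in WT ES cells (score 132) and Utx-KO ES cells (357). At chr2:127551081-127556474 the WT score was 2753 and the Utx-KO peak covered 1386 bp at a score of 60.4. At chr18:23655121-23657358 the peaks were of like size, with 2238 bp (score 917) in WT and 2852 bp (678) in Utx-KO cells. Scores of different lists depend on their depth and are given only to describe each peak within its own list.

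Sites in both clones and not in Utx-KO MEF with dox were led by chr7:29326745-29333683 (6939 bp, score 3100). The strongest overlapping H3K4me3 peaks of clones 1 and 2 were 1094 and 1739 bp wide. H3K27me3 lay there in untreated WT MEF (score 131), untreated Utx-KO MEF (128) and Utx-KO ES cells (458), and in neither fibroblast list with dox. The next were chr6:125270670-125274835 (score 2002) and chr11:94358192-94362167 (1420), which had H3K27me3 in Utx-KO ES cells with scores of 1398 and 607.

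The 178 sites in all 3 lists were led by chr11:116095439-116099939 (4501 bp, score 2552), which had H3K27me3 in WT ES cells (score 60.9) and Utx-KO ES cells (385) and in no fibroblast list. The fifth, chr8:107993062-107995788 (score 1088), had H3K27me3 in no list. The second, chr1:78189319-78194600 (5282 bp, score 1622), met H3K27me3 in 5 lists. Its strongest H3K27me3 peaks scored 1754 in knockout MEF given dox, 1008 in untreated WT MEF and 365 in untreated knockout MEF. ES cells had peaks scoring 168 (WT) and 318 (Utx-KO), and WT MEF given dox had none. The H3K27me3 peak of knockout MEF with dox, 8808 bp wide, spanned the whole site and an H3K4me3 peak of the same cells (2368 bp, score 76.1) lay inside it. The site at chr5:67620118-67623275 (score 1232) had H3K27me3 in the same 5 lists, and chr7:25421202-25424459 (score 1482) in 4 of them, with none in untreated Utx-KO MEF. Of the 5 leading sites, these 3 had both marks in Utx-KO MEF with dox, as did 53 (29.8%) of the 178.

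**Figure D5:**
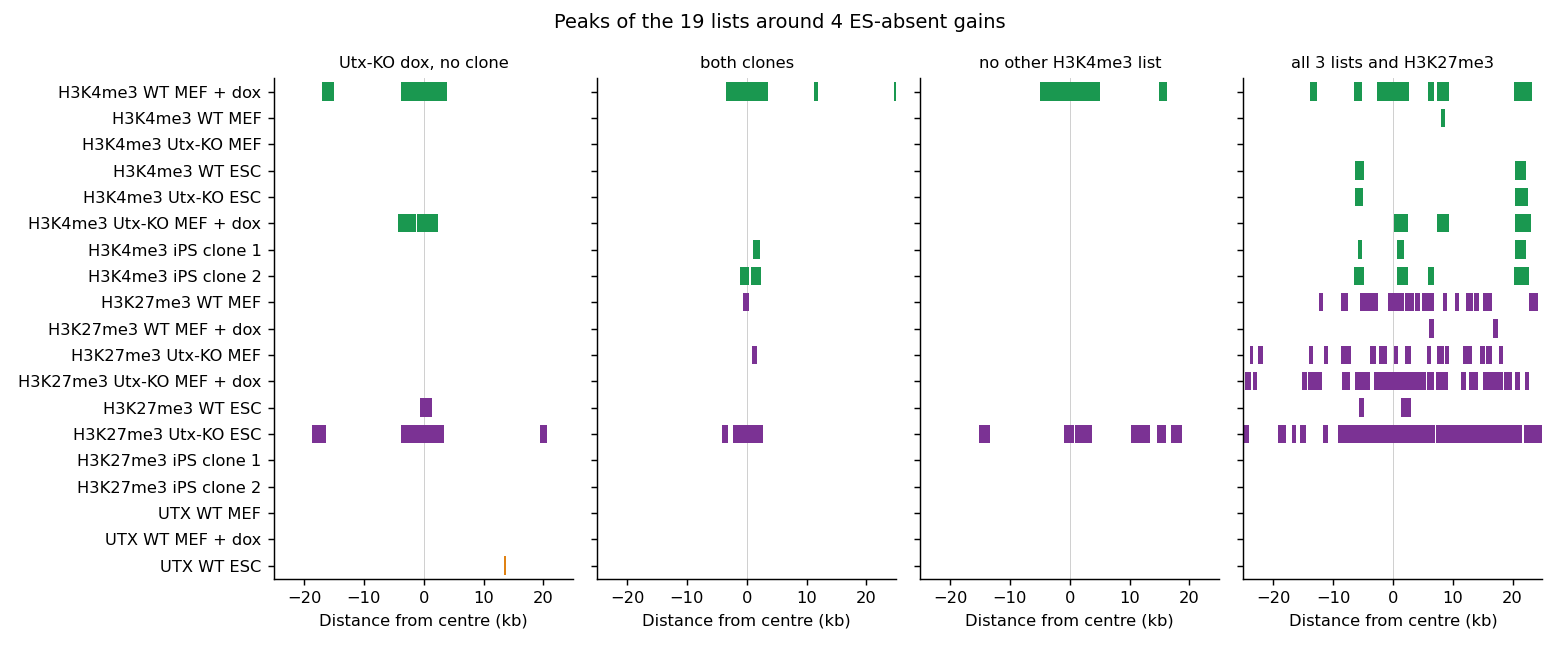
Peaks of the 19 lists (rows, 1 bar per peak, green for H3K4me3, purple for H3K27me3, orange for UTX) within 25 kb of the centre of 4 ES-absent gains (horizontal axis, distance in kb). From left to right they are the sites on chromosomes 11, 7, 15 and 1 with H3K4me3 widths of 7740, 6939, 10110 and 5282 bp in WT MEF with dox, and H3K27me3 peaks are most numerous around the last.

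With UTX in WT MEF with dox, the leading site was chr17:31913752-31918685 (4934 bp, score 1944), met by a UTX peak of 546 bp (score 71.9) and by no other list. The next, chr10:42721891-42723567 (score 400), met UTX (58.8) and H3K4me3 in Utx-KO MEF with dox (52.3), clone 1 (134) and clone 2 (182), and H3K27me3 in Utx-KO ES cells (365).

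Most ES-absent gains stood alone. With neighbours defined by gaps of at most 20 kb, 2392 (75.9%) had none and 760 lay in 332 groups, of which 263 were pairs. The groups with the most members were chromosome 2 from 32738291 to 32774162 and chromosome 7 from 29707641 to 29758174, with 6 each. On the former, H3K4me3 with dox covered 15.8 kb in WT MEF and none in Utx-KO MEF, and no H3K27me3 peak lay in it in any list. There were 5 groups of 5. One of them, on chromosome 2 from 74573476 to 74591923, differed from it: all 5 sites met H3K27me3 in untreated WT MEF and in Utx-KO MEF with dox, 5 had H3K4me3 in clone 2, 4 in clone 1 and 1 in Utx-KO MEF with dox. There H3K27me3 covered 14.0 kb of 18448 bp in Utx-KO MEF with dox and none in WT MEF with dox.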

How the data were processed

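For each of 19 immunoprecipitated samples the authors deposited 1 peak list with position and a score per peak. The tools listed by the submitters' processing notes are MACS 1.4.1, Bowtie 0.12.5 and CASAVA 1.8.2, with the mouse build mm9, and no source used here gives their settings or controls. In each list the deposited score behaves as -10 times the log10 of a peak p-value as MACS writes it (lowest value 50) and is the authors' own value. It was used only to rank, filter and band peaks within a list. The 8 whole-cell extracts were not analysed here. The only mitochondrial peak (1) was left out. Positions are 1-based mm9. Overlap was at least 1 bp. Peaks of WT MEF with dox were split into ES-absent gains, ES-marked gains and kept peaks. Named regions are the leading 5 by score, then width, of each class (H3K4me3 in Utx-KO MEF with dox and both clones, in the former alone, in both clones alone, in no other list; H3K27me3 in untreated WT MEF or Utx-KO MEF with dox; UTX with dox), the 5 widest sites, the 5 groups with the most sites (ties by highest score) and the 3 nearest the rule's edge on either side; the text gives a selection. No test was possible with 1 library per state. The sites, comparison sets and alternatives were chosen with earlier results of these data known. Overlap counts were tested on simulated data (10 of 10 placements right) and against bedtools 2.31.1 (18 of 18 lists). Python 3.11.15, numpy 2.4.6, pandas 2.3.3 and matplotlib 3.10.9 were used. Alternatives tried: peaks scoring 100 or more, overlap over 50% of the shorter peak, autosomes only, over 2500 bp from excluded peaks, equal peak numbers, midpoints, and each clone alone.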

Additional observations from a re-analysis of the deposited data

How the results depend on the processing

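The 2 differences between ES-absent and ES-marked gains kept their sign under every alternative run: the one for Utx-KO MEF with dox lay from -34.8 to -31.8 points, and the one for the clones moved beyond 1 SD only at a score of at least 100, to -56.6 points. With clone 2 left out the latter was -68.3 points and the share met by the remaining clone 16.8%. With clone 1 left out these values were -61.9 points and 34.2%. At a score of at least 100 in every list, 2061 dox peaks fulfilled the rule. The excluded lists were cut as well, so some of these peaks met a weaker excluded peak and are not ES-absent gains. Of the 2061, 22.1% met H3K4me3 in Utx-KO MEF with dox and 39.2% (mean of clones) in the iPS clones. H3K27me3 met 12.5%, 12.3% and 38.8% in untreated WT MEF, Utx-KO MEF with dox and Utx-KO ES cells, and UTX with dox met 0%. With equal peak numbers the excluded lists were shortened as well, and 1693 dox peaks fulfilled the rule, not all of them ES-absent gains. The values of the 1693 in the same order were 41.5%, 18.2% (clones 14.5% and 21.9%), 14.0%, 17.9%, 47.3% and 1.00%. Over 2500 bp from any excluded peak, Utx-KO MEF with dox met 17.5%, and H3K27me3 met 6.39% and 8.56% in untreated WT MEF and Utx-KO MEF with dox. At 50% overlap H3K27me3 met 6.21%, 8.66% and 26.4% in the same order as above, and with midpoints 4.41%, 7.55% and 25.2%, with UTX at 0.190%. The other 33 of 57 values moved by less than their interval, the spread of the clones or, for the number of sites, 1.5 times. For the values with a clone left out this holds by construction, since each of 2 values lies within 1 SD of their mean. Apart from smaller sets, shortened excluded lists or stricter overlap by construction, the cause of these shifts was not tested. No paired analysis was possible because no result comes from a test and only the 2 clones carry numbers. Read depth was unknown, so absence from a list limits every share.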

Other observations

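ES-absent gains were spread over the chromosomes. Their share of the H3K4me3 peaks of WT MEF with dox ranged from 13.0% on chromosome X (76 of 584) to 20.1% on chromosome 18 (113 of 562), and none of the 4 dox peaks on chromosome Y was among them. On chromosome 1 from 135097319 to 135143786, 5 sites with scores of 52.5 to 679 met no H3K4me3 peak of Utx-KO MEF with dox or of a clone, and 1 of them met H3K27me3 in Utx-KO ES cells. On chromosome 7 from 29326745 to 29374013, 5 sites with scores of 54.5 to 3100 included 1 met by both clones.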
